A study of Homo sapiens with 12 samples.

Results

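Interferon beta (IFN-β) treatment changed H3K27ac coverage differently in CFPAC1 and MiaPaCa2 cells at 9 genes. At 5 genes, CXCL11 and APOBEC3A among them, both lines started at or near 0 bp and only CFPAC1 gained peaks. At XAF1, ACSL5 and TSPAN2, CFPAC1 was covered before IFN-β was added and MiaPaCa2 was at 0 bp. At CCDC33 both lines were covered before treatment, within 2-fold of each other, and CFPAC1 fell. CFPAC1 and MiaPaCa2 are established lines from human pancreatic ductal adenocarcinoma, and H3K27ac is an acetylated histone mark of active promoters and enhancers. The quantity compared was the change with IFN-β in CFPAC1 minus the change with IFN-β in MiaPaCa2, called the difference here. It is positive where CFPAC1 gained more or lost less. The members are the 8 libraries of the bulk lines among the 12 libraries of the series, in 4 groups of 2: untreated CFPAC1, CFPAC1 given 1000 U/ml of IFN-β for 2 h, untreated MiaPaCa2, and MiaPaCa2 given the same dose for the same time. All 8 came from unedited cells and used 1 antibody. CFPAC1 was grown in IMDM and MiaPaCa2 in DMEM, so line and medium cannot be told apart. The labels do not say whether the 2 libraries of a group came from separate cultures, so p-values measure the spread between libraries, which may be technical. For genes, that spread was estimated over all 12 libraries. It therefore also holds the differences between 2 CFPAC1 wild-type clones and between 2 CFPAC1 IRF1-knockout clones. With only the 8 libraries, 16 genes were called in place of 9.

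The 8 deposited lists ranged from 59896 to 102857 peaks, and as they give no read counts their depth is unknown. The 4 CFPAC1 lists covered 84.7 and 94.8 Mb untreated and 76.9 and 76.6 Mb treated, and the MiaPaCa2 lists 78.2 and 71.8 Mb untreated and 63.6 and 77.1 Mb treated. CFPAC1 thus had less covered genome after treatment in both libraries, while the MiaPaCa2 groups overlapped. The part of these totals in the results was not tested beyond the alternatives with no centring and with equal numbers of peaks given with the processing limits. Of 10 ductal epithelial markers, CFPAC1 had peaks at all 10 in every library, whereas MiaPaCa2 had 0 bp in all 4 libraries at EPCAM, CDH1 and CFTR. Of 8 lymphocyte and myeloid markers, PTPRC, CD3D and MS4A1 were at 0 bp in all 8 libraries, while 4 were covered in every CFPAC1 library and 2 in every MiaPaCa2 library. Their summed coverage was 7680 to 8211 bp in untreated and 5056 to 6017 bp in treated CFPAC1, and 2094 to 3702 bp in untreated and 398 to 2005 bp in treated MiaPaCa2. Their part in the results was not tested.

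IFN-β binds a receptor that activates the kinases JAK1 and TYK2, which phosphorylate STAT proteins. With IRF9 these form a complex that binds interferon-stimulated response elements in promoters and enhancers. The genes it switches on encode antiviral effectors, sensors of foreign nucleic acid, chemokines and antigen-presentation proteins, as well as inhibitors that end the response. In tumour cells this programme is known for its links to cell growth arrest and to recognition by T cells.

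The promoters of 6 interferon-stimulated genes are shown because they cover the patterns described below: a similar gain in both lines (MX1), a larger gain in the line that started lower (IFIT1, XAF1, OAS1, SAMD9), and a gain in CFPAC1 with no MiaPaCa2 peak (CXCL11). Each is the 250 bases before the gene start in RefSeq, GRCh38.p14, written 5′ to 3′ on the gene's strand. Capitals mark GAAANNGAAA or GAAANGAAA on either strand (TTTCNNTTTC or TTTCNTTTC), the core letters of the response element. The forms can overlap, as they do in SAMD9.
MX1: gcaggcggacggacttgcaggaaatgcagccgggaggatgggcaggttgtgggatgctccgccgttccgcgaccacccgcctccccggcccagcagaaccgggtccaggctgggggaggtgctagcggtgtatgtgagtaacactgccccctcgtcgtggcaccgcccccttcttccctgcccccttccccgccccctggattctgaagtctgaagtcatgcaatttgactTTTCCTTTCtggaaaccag
IFIT1: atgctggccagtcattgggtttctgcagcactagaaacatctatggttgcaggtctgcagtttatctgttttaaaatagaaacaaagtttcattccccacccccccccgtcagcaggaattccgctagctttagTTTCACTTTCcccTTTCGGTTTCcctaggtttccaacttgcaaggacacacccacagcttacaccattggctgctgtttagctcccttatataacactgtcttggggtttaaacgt
XAF1: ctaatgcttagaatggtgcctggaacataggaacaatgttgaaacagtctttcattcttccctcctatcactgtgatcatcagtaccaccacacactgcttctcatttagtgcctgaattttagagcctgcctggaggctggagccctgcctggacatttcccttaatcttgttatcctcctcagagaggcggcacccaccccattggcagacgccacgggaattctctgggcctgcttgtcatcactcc
OAS1: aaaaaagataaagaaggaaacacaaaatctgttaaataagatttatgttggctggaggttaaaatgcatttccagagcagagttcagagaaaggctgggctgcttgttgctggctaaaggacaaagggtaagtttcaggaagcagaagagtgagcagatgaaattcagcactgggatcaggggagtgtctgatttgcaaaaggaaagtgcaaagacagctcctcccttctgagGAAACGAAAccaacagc
SAMD9: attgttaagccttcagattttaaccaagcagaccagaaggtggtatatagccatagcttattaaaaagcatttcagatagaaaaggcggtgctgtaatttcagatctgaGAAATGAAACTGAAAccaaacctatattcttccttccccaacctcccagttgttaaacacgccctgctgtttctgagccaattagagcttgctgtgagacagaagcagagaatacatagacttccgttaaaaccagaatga
CXCL11: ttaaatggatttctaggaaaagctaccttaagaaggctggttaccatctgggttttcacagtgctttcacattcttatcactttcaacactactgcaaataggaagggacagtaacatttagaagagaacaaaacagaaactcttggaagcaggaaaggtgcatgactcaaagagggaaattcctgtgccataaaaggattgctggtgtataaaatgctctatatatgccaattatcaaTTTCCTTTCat
These windows are at chr21:41420308-41420557 (plus strand) for MX1, chr10:89392373-89392622 (plus strand) for IFIT1, chr17:6755197-6755446 (plus strand) for XAF1, chr12:112906712-112906961 (plus strand) for OAS1, chr7:93117980-93118229 (minus strand) for SAMD9 and chr4:76036071-76036320 (minus strand) for CXCL11. In the 300 bases from 250 before to 50 after a gene start, the motif occurred in 5.63% of 22155 promoters of protein-coding genes. It occurred in at least 1 promoter of 7.42% of 15812 protein-coding genes and of 84.1% of the 63 tested interferon-stimulated genes that had a promoter sequence. That share was 79.4% of 34 such genes with similar untreated coverage, 90.5% of 21 with higher untreated coverage in CFPAC1, and 6 of 6 without any MiaPaCa2 peak. A match is a description of the letters and not a bound site.

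Peaks over these 250 bases differed from those of the wider window at some genes. The MX1 and IFIT1 windows lay wholly under peaks in all 8 libraries. The OAS1 window was wholly covered in the 4 CFPAC1 libraries and in both treated MiaPaCa2 libraries, and had 0 bp in both untreated MiaPaCa2 libraries. The XAF1 window had 53 and 157 bp in untreated CFPAC1, 0 bp in untreated MiaPaCa2 and all 250 bp in the 4 treated libraries. The SAMD9 window was wholly covered in CFPAC1 with or without IFN-β, and in MiaPaCa2 only 1 treated library reached it, with 49 bp. At CXCL11 the treated CFPAC1 libraries had 250 and 246 bp and the other 6 libraries had 0 bp.

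Across genes, 9 of 15509 tested protein-coding genes (0.058%) had a different change at a limma adjusted p under 0.05, 5 with the more positive change in CFPAC1 (0.0322%) and 4 with that in MiaPaCa2 (0.0258%). The measure is the length covered by peaks in the 10 kb around a gene end, analysed as log2 of bp plus 500 and centred in each library, so changes are on that scale and are understated for genes with little coverage. At an unadjusted p under 0.05 there were 1158 genes. Of the 9 genes, 6 had 0 bp in all 4 MiaPaCa2 libraries, 2 had 0 bp in untreated MiaPaCa2 only, and CCDC33 was covered in every group. Among the 11954 genes covered in every group, 0 were called (0%) by limma, with 748 at an unadjusted p under 0.05. Names outside the rule for naming genes, such as SAMD9, HERC6, GBP3, GBP5, EPSTI1, IFI27, PLSCR1, NMI and OAS3, were chosen after their values were seen.

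Of the 4 genes with the more positive change in MiaPaCa2, XAF1, ACSL5 and TSPAN2 had 0 bp in both untreated MiaPaCa2 libraries, and CCDC33 started within 2-fold in the lines. XAF1 (chr17:6755447-6775647), which encodes a partner and antagonist of the apoptosis inhibitor XIAP, had 3759 and 4074 bp in untreated CFPAC1 and 4755 and 4588 bp in treated CFPAC1, against 0 and 0 bp in untreated and 2845 and 2648 bp in treated MiaPaCa2. CFPAC1 was thus covered throughout, and MiaPaCa2 went from no peak to a level still below every CFPAC1 library. The difference was -2.41 (95% confidence interval -2.82 to -1.99, limma adjusted p = 0.00322), and the gap between the lines went from 3.08 before treatment to 0.68 after it (log2, CFPAC1 minus MiaPaCa2). ACSL5 (chr10:112374116-112428376), an enzyme that activates long-chain fatty acids, had 6293 and 5590 bp in untreated and 5539 and 5661 bp in treated CFPAC1, 0 and 0 bp in untreated MiaPaCa2 and 1058 and 924 bp in treated MiaPaCa2 (difference -1.59, -1.98 to -1.19, adjusted p = 0.0143). Its gap stayed large, at 3.63 before and 2.04 after treatment, and both gaps passed the test (adjusted p = 2.72e-08 and 1.22e-06).

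The other 2 genes of that direction fell in CFPAC1. CCDC33 (chr15:74202999-74336472), which encodes a coiled-coil protein, had 7451 and 4984 bp in untreated and 1172 and 1054 bp in treated CFPAC1, against 9911 and 9443 bp in untreated and 8728 and 9432 bp in treated MiaPaCa2. Its difference was -1.88 (-2.38 to -1.38, adjusted p = 0.0178), with a change of -1.89 in CFPAC1 (adjusted p = 9.07e-04) and -0.01 in MiaPaCa2 (adjusted p = 0.992). The MiaPaCa2 window was nearly full before treatment, so a further gain there could not have been seen. Among genes covered in every group CCDC33 had the smallest adjusted p, 0.0663. TSPAN2 (chr1:115048011-115089503), a membrane protein of the tetraspanin family, had 1865 and 1953 bp in untreated and 229 and 223 bp in treated CFPAC1 and 0 bp in all MiaPaCa2 libraries (difference -1.67, -2.17 to -1.16, adjusted p = 0.0486). MiaPaCa2 had nothing to lose there.

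The 5 genes with the more positive change in CFPAC1 had untreated gaps that did not pass the test (adjusted p = 0.261 to 0.867) and treated gaps that did (adjusted p = 2.87e-06 to 8.02e-06). At APOBEC3A, MORC1, LINGO1 and PNOC every untreated library of both lines had 0 bp, so their untreated gaps could not pass. All 5 were called on these same libraries, so their treated gaps lend no further support. CXCL11 (chr4:76033682-76036070), a chemokine that draws T cells through the receptor CXCR3, had 56 and 296 bp in untreated and 5785 and 3729 bp in treated CFPAC1, with 0 bp in all 4 MiaPaCa2 libraries. Its difference was 3.02 (2.24 to 3.80, adjusted p = 0.0158), and the nearest MiaPaCa2 peak of any library lay 42283 bp from the gene end used. APOBEC3A (chr22:38957609-38963184), a cytidine deaminase that mutates foreign DNA, had 2040 and 1738 bp in treated CFPAC1 and 0 bp in the other 6 libraries (2.32, 1.74 to 2.90, adjusted p = 0.0143). Both genes were picked by the call on these same libraries, so the separation of treated CFPAC1 from the others lends no further support.

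The remaining 3 are not known as interferon-stimulated genes. MORC1 (chr3:108958248-109118134), a germ-line chromatin protein, had 3432 and 2574 bp in treated CFPAC1 (difference 2.86, 2.24 to 3.48, adjusted p = 0.012). LINGO1 (chr15:77613027-77820900), a membrane protein of neurons, had 5982 and 3300 bp (3.38, 2.58 to 4.17, adjusted p = 0.0143), at the 3′ end of the gene. PNOC (chr8:28316988-28343351), which encodes the precursor of the neuropeptide nociceptin, had 1706 and 2090 bp (2.32, 1.74 to 2.90, adjusted p = 0.0143). All 3 had 0 bp in both untreated CFPAC1 libraries and in all 4 MiaPaCa2 libraries. The nearest MiaPaCa2 peak lay 155376 bp away at MORC1, 5059 bp at LINGO1, just outside the window, and 46289 bp at PNOC. Because groups at 0 bp have no spread, the error of these genes rests mostly on the trend over other genes. Leaving out 1 library at a time gave between 0 and 24 called genes, and 0 by limma without CFPAC1 IFN-β replicate 2, where 1013 had an unadjusted p under 0.05. Without CFPAC1 untreated replicate 1 or 2, or IFN-β replicate 1, 2 genes were called, and 3 without MiaPaCa2 IFN-β replicate 1. There were 21 without MiaPaCa2 untreated replicate 1, 24 without its replicate 2, and 16 without MiaPaCa2 IFN-β replicate 2. Of the genes called after quantile normalization, 23 were higher in CFPAC1's change and 12 in that of MiaPaCa2.

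**Figure D1:**
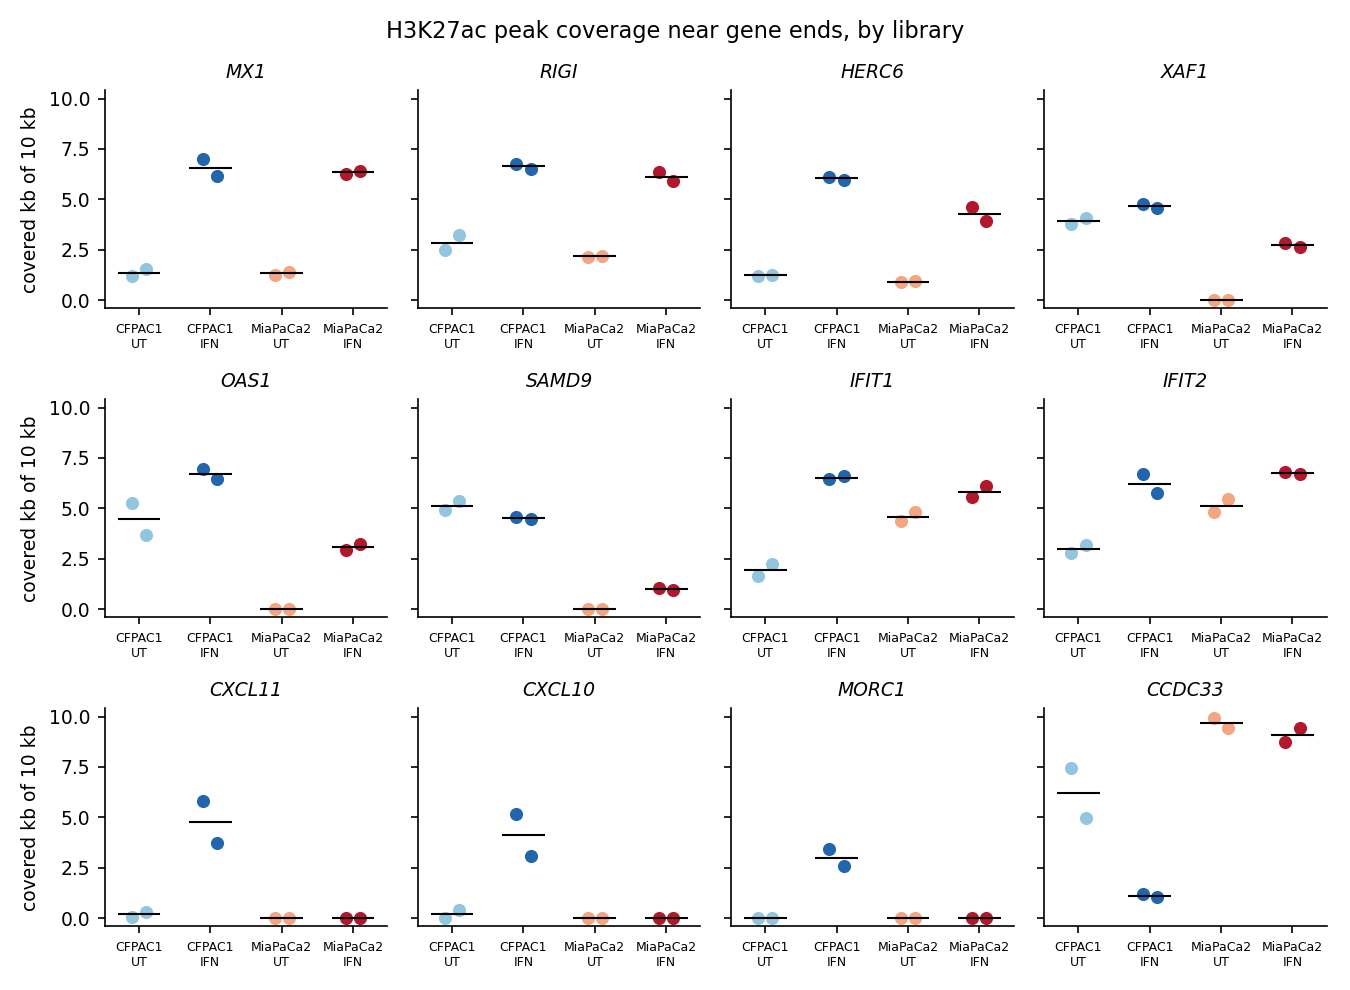
Covered kb within 5 kb of the gene end (vertical axis, 10 kb in all) in each library of the 4 groups (UT, untreated; IFN, IFN-β for 2 h) for 12 genes; points are libraries and bars their means. MX1, RIGI and HERC6 had differences between -0.14 and 0.23, XAF1, OAS1 and SAMD9 started from 0 kb in MiaPaCa2, IFIT1 and IFIT2 started higher in MiaPaCa2, and CXCL11, CXCL10 and MORC1 had 0 kb in every MiaPaCa2 library.

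The 3 lists of interferon-stimulated genes (antiviral effectors, chemokines and checkpoint ligands, nucleic acid sensors) had 98 members, of which 93 passed the filter on coverage. As a whole they shifted in both lines by nearly the same amount: the median change was 0.75 in CFPAC1 and 0.74 in MiaPaCa2, and the median difference was -0.11, with 42 members positive and 51 negative. Over all tested genes the median difference was 0.02. Members rose past the threshold in CFPAC1 in 22 cases and in MiaPaCa2 in 31, 11 of them in both, and none fell in either line. Over all genes 0.677% rose and 0.309% fell in CFPAC1, and 0.561% rose and 0.0903% fell in MiaPaCa2. A different change was called for 3 of the 93, CXCL11, APOBEC3A and XAF1, beside 0.058% of all genes, while 34 (36.6%) had an unadjusted p under 0.05, against 7.47% of all genes. Single members thus differed in both directions, and the median near 0 does not describe them.

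**Figure D2:**
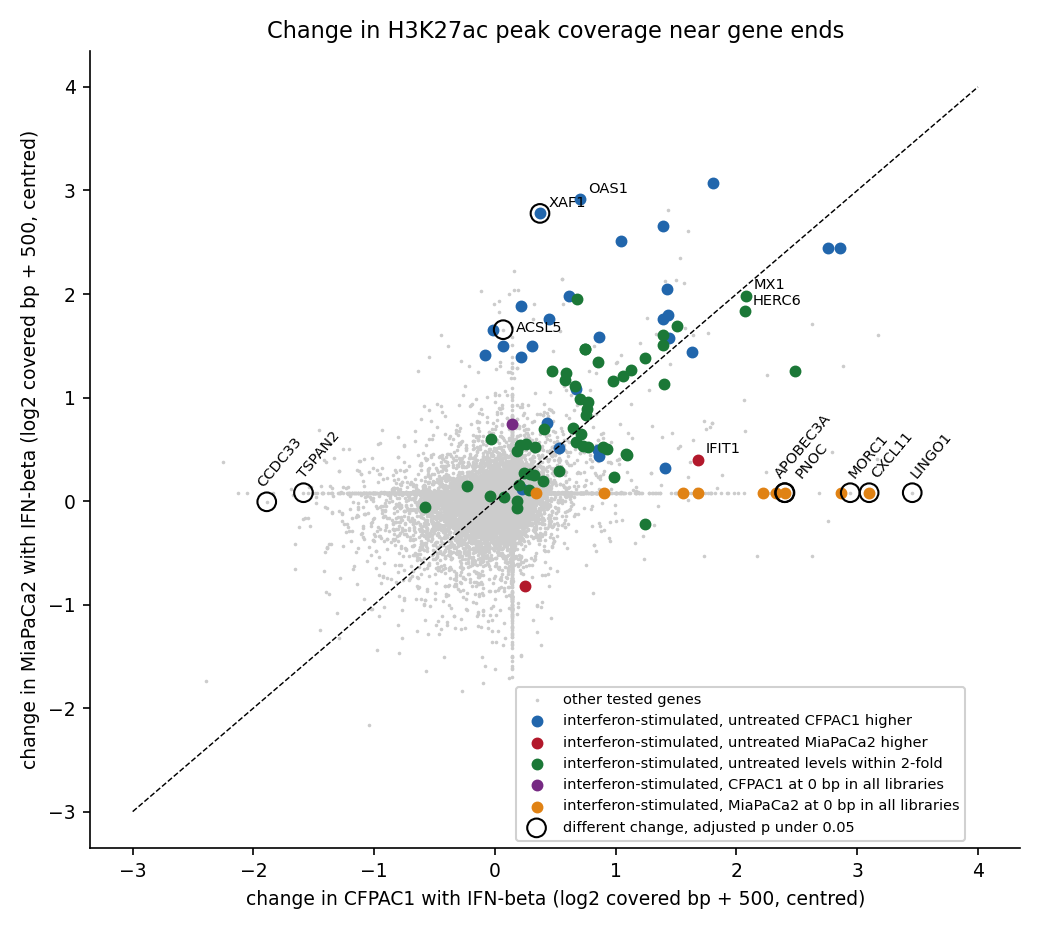
Change with IFN-β in CFPAC1 (horizontal) and in MiaPaCa2 (vertical), both in log2 of covered bp plus 500 after centring, for all 15509 tested genes (grey) and 93 interferon-stimulated genes coloured by untreated coverage. Circles mark the 9 genes with a different change, and the dashed line marks equal changes; genes at 0 bp in every MiaPaCa2 library lie on the horizontal band just above 0.

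Untreated coverage divided these genes. It was within 2-fold between the lines (log2 of mean bp plus 500) in 53 of them, whose median change was 0.71 in CFPAC1 and 0.60 in MiaPaCa2, and whose median difference was -0.09 (quartiles -0.30 and 0.20). Of the 53, 50 had a difference of at most 1 in size and 0 were called, with 11 at an unadjusted p under 0.05. Of 10584 other genes of that class, 10464 had a difference of at most 1, 1 was called and 578 had an unadjusted p under 0.05. The share at an unadjusted p under 0.05 was thus higher among the interferon-stimulated genes. In 28 genes untreated CFPAC1 was higher by more than 2-fold: the median change was 0.78 in CFPAC1 and 1.62 in MiaPaCa2, the median difference -0.67, and the median gap went from 1.69 to 1.09. Other genes of that class (987) had a median difference of -0.14. In 9 genes MiaPaCa2 had 0 bp in every library, and the median difference was 2.14, from a median change of 2.22 in CFPAC1. Other genes without MiaPaCa2 peaks (1773) had a median difference of -0.18. MiaPaCa2 started higher in 2 genes, IFIT1 and APOBEC3H, and CFPAC1 had no peak at 1, APOL3.

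The class and the difference share the untreated libraries and are not independent. The class was therefore also set from 1 untreated library per line and the difference fitted without those 2 libraries, an alternative chosen after the data were seen. The median difference of interferon-stimulated genes with higher untreated CFPAC1 was then -0.56 and -0.54, and that of genes with similar coverage -0.03 and -0.02. Over other genes the first class had medians of -0.05 and -0.13.

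Among genes that started alike, MX1 (chr21:41420558-41459214), a GTPase that blocks viral replication, had 1183 and 1533 bp in untreated and 6997 and 6134 bp in treated CFPAC1, and 1246 and 1412 bp in untreated and 6246 and 6425 bp in treated MiaPaCa2. Its difference was 0.09 (-0.76 to 0.94, adjusted p = 0.992), so an interval of nearly 1 on either side remained possible. RIGI, a sensor of viral RNA, had 2465 and 3239 bp that became 6757 and 6506 bp in CFPAC1, and 2159 and 2199 bp that became 6351 and 5893 bp in MiaPaCa2 (-0.14, -0.66 to 0.38). Treated and untreated libraries did not overlap in either line at either gene. HERC6, an E3 ligase related to the enzyme that attaches ISG15, rose in both lines by 2.07 and 1.84 (adjusted p = 4.06e-04 in CFPAC1 and 6.57e-04 in MiaPaCa2), with a difference of 0.23 (-0.21 to 0.67). ISG15, the ubiquitin-like modifier itself, rose by 0.66 in CFPAC1 and 1.11 in MiaPaCa2 (difference -0.45, -0.85 to -0.06, adjusted p = 0.581). USP18, which removes ISG15 and dampens the receptor, had changes of 0.60 in CFPAC1 (adjusted p = 0.188) and 1.27 in MiaPaCa2 (adjusted p = 0.0109), and its difference was -0.67 (adjusted p = 0.564).

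Among genes that started lower in MiaPaCa2, OAS1, an enzyme whose product activates RNase L, had 5251 and 3656 bp in untreated and 6965 and 6465 bp in treated CFPAC1, 0 and 0 bp in untreated MiaPaCa2 and 2931 and 3206 bp in treated MiaPaCa2 (difference -2.21, -3.23 to -1.19, adjusted p = 0.154). SAMD9, which restricts viral growth, went from 4905 and 5347 bp to 4573 and 4486 bp in CFPAC1, and from 0 and 0 bp to 1043 and 926 bp in MiaPaCa2 (-1.67, -2.19 to -1.14, adjusted p = 0.0525). Neither difference was called here, but SAMD9 was called in 6 of 21 alternatives and OAS1 in 3 of 21. For OAS1 these were 100 bp added, a 2 kb window and only the 8 libraries (limma adjusted p = 0.0135, 0.0127 and 0.0334). At OAS2 the change was 1.39 in CFPAC1 (adjusted p = 0.0427) and 2.66 in MiaPaCa2 (adjusted p = 0.00217), and at OAS3 1.42 and 2.05 (adjusted p = 0.00934 and 0.00187), so both rose in both lines, with differences of -1.27 and -0.62 (adjusted p = 0.402 and 0.656). IFIH1, which encodes the RNA sensor MDA5 and shares its window with GCA, had 2556 and 2273 bp that became 5280 and 4593 bp in CFPAC1, and 232 and 568 bp that became 4660 and 3903 bp in MiaPaCa2 (-1.47, adjusted p = 0.16).

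IFI27, GBP3 and PLSCR1 had treated gaps between -0.12 and 0.20 after starting apart. PLSCR1, a scramblase with antiviral activity, had 3873 and 3532 bp in untreated and 3709 and 3254 bp in treated CFPAC1, and 1042 and 1201 bp in untreated and 4242 and 3468 bp in treated MiaPaCa2. Its gap was 1.32 before treatment (adjusted p = 2.75e-04) and -0.12 after it (adjusted p = 0.64). GBP3, a guanylate-binding GTPase, had gaps of 1.84 and 0.18, and IFI27, a mitochondrial protein, of 1.57 and 0.20, and none of the 3 differences was called (adjusted p = 0.0831 to 0.133). MX2 had a wider spread, with 4548 and 2635 bp in treated MiaPaCa2, and its difference of -1.27 was not called (adjusted p = 0.828). OASL rose in both lines by 1.40 and 1.76, and RSAD2 and CMPK2, which share a window, rose by 2.76 and 2.86 in CFPAC1 and by 2.45 each in MiaPaCa2. Their differences of -0.36, 0.31 and 0.41 changed sign under other windows or pseudocounts.

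The order was turned round at the IFIT cluster on chromosome 10, whose proteins bind viral RNA. IFIT1 had 1655 and 2227 bp in untreated and 6447 and 6588 bp in treated CFPAC1, and 4345 and 4794 bp in untreated and 5564 and 6084 bp in treated MiaPaCa2. The untreated gap of -1.12 passed the test (adjusted p = 0.00184), the treated gap of 0.16 did not (adjusted p = 0.598), and the difference was 1.28 (0.61 to 1.95, adjusted p = 0.247). IFIT2 had 2783 and 3177 bp that became 6713 and 5744 bp in CFPAC1, and 4815 and 5451 bp that became 6805 and 6702 bp in MiaPaCa2, with gaps of -0.75 (adjusted p = 9.03e-04) and -0.11 (adjusted p = 0.54). IFIT3, between them, had a difference of 0.25 (-0.38 to 0.87). MiaPaCa2 thus started with more coverage at IFIT1 and IFIT2 and with less at OAS1, XAF1 and SAMD9.

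**Figure D3:**
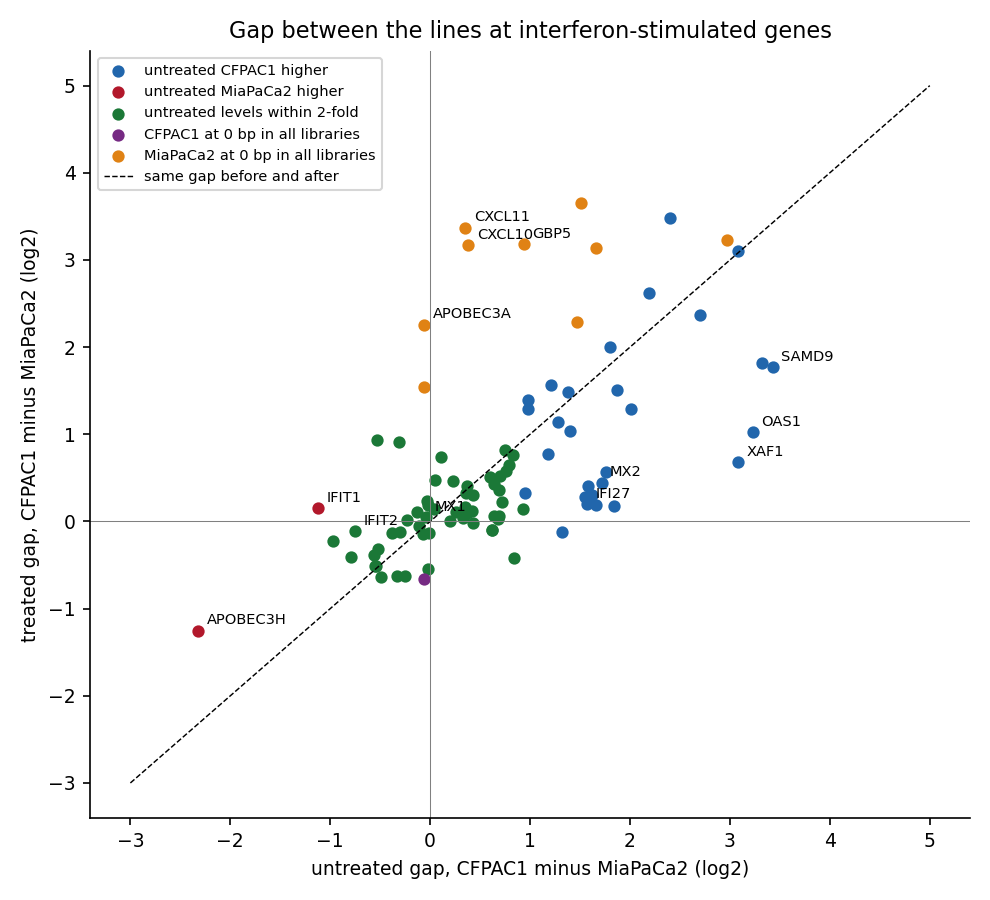
Gap between the lines (log2, CFPAC1 minus MiaPaCa2) before treatment (horizontal) and after it (vertical) at 93 interferon-stimulated genes, coloured by untreated coverage. XAF1 and OAS1 lie far below the dashed line of equal gaps, IFIT1 moves from -1.12 to 0.16, and CXCL10, CXCL11 and APOBEC3A lie above it with gaps that appear only after treatment.

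Of the 11 members of the chemokine and checkpoint list 7 were tested, with a median difference of 1.60 and 6 at an unadjusted p under 0.05, but only CXCL11 was called. CXCL10 had 4 and 414 bp in untreated and 5143 and 3058 bp in treated CFPAC1 and 0 bp in MiaPaCa2 (difference 2.79, 1.77 to 3.81, adjusted p = 0.0831). CXCL9, which shares its window with ART3, had 0 and 0 bp that became 1705 and 453 bp (1.60, 0.55 to 2.65, adjusted p = 0.402). IDO1, an enzyme that degrades tryptophan, had 933 and 1030 bp that became 6130 and 5399 bp in CFPAC1, no MiaPaCa2 peak within 812502 bp, and a difference of 2.14 (1.01 to 3.28, adjusted p = 0.253). The checkpoint ligand genes CD274 and PDCD1LG2 had differences of the other sign, -1.17 and -1.27 (adjusted p = 0.581 and 0.912). CD274, which encodes PD-L1, had 8573 and 9251 bp in untreated CFPAC1, a nearly full window, and 1458 and 4177 bp in untreated MiaPaCa2 against 7504 and 6534 bp after treatment. Its difference was -0.52 without MiaPaCa2 untreated replicate 1, and -1.82 and called without replicate 2 (limma adjusted p = 0.0307). That of PDCD1LG2 ran from -2.32 to -0.21 without 1 library. A window that is nearly full cannot show a further gain, and CD274 was the only one of the 93 genes in that state in CFPAC1 (0 in MiaPaCa2).

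GBP5 and EPSTI1 had the same form as the chemokines. GBP5, which promotes inflammasome assembly, had 646 and 371 bp that became 4744 and 3408 bp in CFPAC1, and EPSTI1 had 1030 and 1275 bp that became 4437 and 3417 bp. Both had 0 bp in every MiaPaCa2 library, with differences of 2.24 and 1.48 (adjusted p = 0.193 and 0.0929). Fewer acetylated copies and fewer cells with the mark cannot be told apart in bulk chromatin.

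Upstream of the response, of 9 receptor and kinase genes, all covered in every group, 0 rose, fell or had a different change, and differences lay between -0.43 at IFNGR2 and 0.26 at IFNGR1. Of 16 STAT and IRF genes 0 had a different change, with a median of 0.02. At an unadjusted p under 0.05 there were 1 of the 9 (11.1%) and 2 of the 16 (12.5%), beside 7.47% of all genes. STAT2 had changes of 0.85 and 0.59 (difference 0.26, -0.28 to 0.79). IRF9, its partner, had a difference of -0.68 (-1.71 to 0.35), which was -1.32 without MiaPaCa2 untreated replicate 1 and -0.036 without its replicate 2. IRF1, a factor that binds the same kind of element, had changes of 0.41 and 0.86 (difference -0.45, -0.89 to -0.02, adjusted p = 0.642). IRF7 had 2249 and 2114 bp that became 3750 and 3417 bp in CFPAC1, while MiaPaCa2 went from 1967 and 748 bp to 1176 and 200 bp with IFN-β, and its difference of 1.37 had an interval from 0.07 to 2.66 (adjusted p = 0.637). Its untreated and treated MiaPaCa2 libraries overlapped. The difference at IRF7 was 0.90 without MiaPaCa2 untreated replicate 1, and 2.08 or 0.65 when its treated replicate 1 or 2 was left out.

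Among 10 feedback inhibitors, SOCS1, which blocks JAK kinases, had the most positive difference. It had 895 and 1642 bp that became 6893 and 5292 bp in CFPAC1 and 1483 and 1350 bp that became 3465 and 2704 bp in MiaPaCa2. The untreated gap of -0.21 did not pass the test and the treated gap of 0.88 did (adjusted p = 0.602 and 0.0399), but the difference of 1.09 was not called (0.13 to 2.05, adjusted p = 0.585). The list had a median difference of -0.11 and 0 calls, beside 0.058% of all genes. At an unadjusted p under 0.05 there were 3 of the 10 (30%), beside 7.47% of all genes. Of 29 antigen presentation genes 0 were called, 15 differences were negative, and the median was -0.02. Of these genes 5 (17.2%) had an unadjusted p under 0.05. PSMB8, an immunoproteasome subunit, rose in both lines (adjusted p = 0.0291 in CFPAC1 and 0.00187 in MiaPaCa2; difference -0.49, -0.81 to -0.17, adjusted p = 0.402), and TAP2, a peptide transporter next to it with a shared window, rose by 0.78 and 1.26. TAP1 and PSMB9, which share a window, rose in MiaPaCa2 (0.84, adjusted p = 0.00922) and had a change of 0.40 in CFPAC1 (adjusted p = 0.171). NLRC5, which switches on class I genes, rose in MiaPaCa2 (1.24, adjusted p = 0.0133) with a difference of -0.41. HLA-C and HLA-E had differences of -0.28 and -0.40, neither called.

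Outside the interferon lists, the lists of NF-κB and inflammatory, immediate early, epithelial, mesenchymal and glycolysis and redox genes had 0 calls each by limma (0.058% of all genes were called), with medians between -0.16 and 0.06. Their shares at an unadjusted p under 0.05 were 18.5%, 21.4%, 13.5%, 18.2% and 9.52% in that order, beside 7.47% of all genes. In the lipid and sterol list ACSL5 was the only call of 21 tested genes, 3 (14.3%) had an unadjusted p under 0.05, and the list's median was -0.001. GATA6, an endodermal transcription factor of classical pancreatic tumours, had 4568 and 4674 bp in untreated and 3960 and 4377 bp in treated CFPAC1, against 242 and 0 bp untreated and 831 and 955 bp treated in MiaPaCa2. It rose in MiaPaCa2 (1.27, adjusted p = 0.00627), and the difference was -1.26 (-1.78 to -0.75, adjusted p = 0.113). CEACAM1, an adhesion receptor, likewise went from 0 and 0 bp to 1135 and 1062 bp in MiaPaCa2 and had a difference of -1.44 (adjusted p = 0.106). FOSB, a subunit of AP-1, fell in CFPAC1 by 1.53 on the log2 scale (adjusted p = 0.00586), and its difference was -1.29 (adjusted p = 0.15). TNF had a difference of 1.22 (adjusted p = 0.495) and shares its window with LTB.

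Genes covered in every group that started within 2-fold show responses with the least part from starting coverage. The 5 most positive differences were at C17orf99 (1.82), SIGIRR (1.71) and ANO9 (1.70), which share a window, NRG2 (1.58) and SNX20 (1.57). The first 3 came from losses in MiaPaCa2: C17orf99 went from 3819 and 1696 bp to 331 and 456 bp with IFN-β there, and 5966 and 4848 bp against 5644 and 4908 bp in CFPAC1. SNX20 instead rose in CFPAC1, from 303 and 0 bp to 4737 and 2905 bp, and had 371 and 545 bp that became 1434 and 2075 bp in MiaPaCa2. The 5 most negative were at CCDC33, RBMS3 (-1.81), GRAMD1A (-1.72), IL32 (-1.62) and ARTN (-1.59). ARTN, a neurotrophic ligand, had 4038 and 3786 bp in untreated and 767 and 1196 bp in treated CFPAC1, and 4710 and 3364 bp against 3621 and 4848 bp in MiaPaCa2. RBMS3, an RNA-binding protein, had 1316 and 2148 bp that became 291 and 201 bp in CFPAC1. In that fit none of these passed the threshold.

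By locus, the 8 lists merged into 170420 loci, and 99038 with a peak in at least 2 libraries were tested on log2 of covered bp plus 200. A different change was called at 2254 of them (2.28%), 1314 with the more positive change in CFPAC1 (1.33%) and 940 with that in MiaPaCa2 (0.949%). Of the called loci 1857 (82.4%) had no peak in any library of 1 line, so they show a change in 1 line and no peak in the other. The largest group, 866, was gained in CFPAC1 and uncovered in MiaPaCa2, and 554 were lost in CFPAC1 and uncovered in MiaPaCa2. Such loci passed the filter only through the 2 libraries of the 1 group with a peak, and groups at 0 bp have no spread. Their calls therefore describe where peaks were present and lend no further support to a different response. Among 56155 loci with a peak in at least 4 of the 8 libraries, 129 were called. Gained means a peak in both treated and neither untreated library, lost the reverse, held a peak in all 4 libraries of the line, and uncovered a peak in none. With 2 libraries a group the calls were not stable: leaving out any 1 library gave 0 called loci by limma, whichever of the 8 it was, with 12125 to 20088 at an unadjusted p under 0.05, and without centring 4824 were more positive in CFPAC1 and 7103 in MiaPaCa2.

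Loci covered in all 4 groups gave 2 calls among 22917 (0.00873%), both more positive in CFPAC1, with 1520 at an unadjusted p under 0.05. The first, chr10:89290730-89298871, lies 3175 bp from IFIT2. Its covered length was 497 and 498 bp in untreated and 6035 and 5907 bp in treated CFPAC1, and 8020 and 8139 bp in untreated and 8124 and 8012 bp in treated MiaPaCa2 (difference 3.32, limma adjusted p = 0.00847). The second, chr13:44478744-44487261, lies 46601 bp from TSC22D1, a regulator of transcription, and had 383 and 356 bp in untreated and 2241 and 2338 bp in treated CFPAC1, and 7154 and 7316 bp in untreated and 5837 and 7691 bp in treated MiaPaCa2 (2.41, adjusted p = 0.00954). At both, MiaPaCa2 held most of the width before treatment and CFPAC1 did not reach it after treatment. The IFIT2 locus is at its full width in MiaPaCa2, so no gain in length could be measured there. Neither locus was called without CFPAC1 untreated replicate 1 (adjusted p = 0.0597 for both), IFN-β replicate 1 (0.164 and 0.193) or replicate 2 (0.129 and 0.165), or MiaPaCa2 untreated replicate 1 (0.0585 and 0.088) or replicate 2 (0.0759 and 0.088). The TSC22D1 locus was also not called without MiaPaCa2 IFN-β replicate 1 (0.118) or replicate 2 (0.0727).

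CFPAC1 gained 3201 loci (1.88% of the union) and MiaPaCa2 2043 (1.2%), and 216 were gained in both, 6.75% of the CFPAC1 gains and 10.6% of the MiaPaCa2 gains. Of the CFPAC1 gains 79.5% were uncovered in MiaPaCa2 and 2.97% were held there. Of the MiaPaCa2 gains 51.5% were uncovered in CFPAC1 and 19.1%, 390 loci, were already held there. Only 4 loci were gained in CFPAC1 and lost in MiaPaCa2, and 22 the reverse. Uncovered loci were narrow, with a median width of 572 bp for CFPAC1 gains and 443 bp for MiaPaCa2 gains, and the MiaPaCa2 gains that CFPAC1 held were wider, at 1949 bp. These counts carry no test, and a permutation of 2 libraries against 2 gives no p below 0.333. They also depend on single libraries. Leaving out a library of a line drops a condition of the definition, so the count of loci gained in that line can only rise. The 2985 loci gained in CFPAC1 only became 5404 without CFPAC1 untreated replicate 2, and 7132 or 10008 when treated replicate 1 or 2 of CFPAC1 was left out. The 1827 gained in MiaPaCa2 only became 3974 and 3497 without its untreated replicate 1 or 2, and 9708 and 5531 without its IFN-β replicate 1 or 2. The 216 gained in both became 337 without CFPAC1 IFN-β replicate 2 and 399 without MiaPaCa2 IFN-β replicate 2.

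Within 50 kb of genes of the 7 interferon lists there were 1133 loci. CFPAC1 gained 91 of them (8.03%, against 1.88% of all loci) and MiaPaCa2 63 (5.56%, against 1.2%), and losses were near the background, at 3.8% against 4.08% in CFPAC1 and 1.41% against 1.85% in MiaPaCa2. Of the 91, 18 were also gained in MiaPaCa2, 3 were held and 57 uncovered there. Of the 63, 18 were also gained in CFPAC1, 17 were held and 11 uncovered there. A different change was called at 45 of the 715 tested (6.29%, against 2.28% of all), 31 more positive in CFPAC1 and 14 in MiaPaCa2. Of the 31, 19 were gained in CFPAC1 and uncovered in MiaPaCa2, and passed the filter only through the treated CFPAC1 libraries. Both the 6.29% and the 2.28% include loci of that kind. Of the 14, 8 were held in CFPAC1 and gained in MiaPaCa2.

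**Figure D4:**
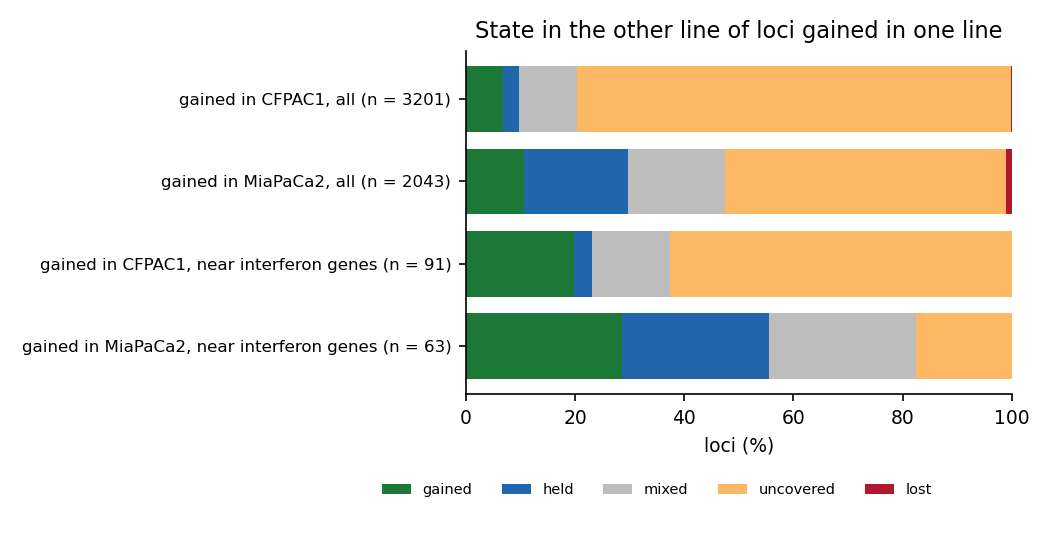
State in the other line of loci gained in 1 line (share in %, n beside each bar), for all loci and for loci within 50 kb of interferon genes; mixed means a peak in some but not all libraries in any other combination. MiaPaCa2 gains near interferon genes were held in CFPAC1 in 27% of cases, and CFPAC1 gains near them were held in MiaPaCa2 in 3.3%.

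The gains shared by both lines near interferon genes lay at ISG15 (2 loci), IFIT3 (2), IRF8 (2), MX1, RIGI, HERC5, HERC6, SOCS1, SP100, SP140L, CMPK2, TAP2, STAT5B, IFI35 and IFNAR1. At RIGI the locus chr9:32528294-32530953 had 2496 and 2306 bp in treated CFPAC1 and 2555 and 2331 bp in treated MiaPaCa2 (difference 0.11, adjusted p = 0.948). At HERC6 the locus chr4:88380576-88384706 had 4131 and 3855 bp in treated CFPAC1 and 2211 and 1924 bp in treated MiaPaCa2 (1.02, adjusted p = 0.0748). All 4 untreated libraries had 0 bp at both, by the definition of a gain.

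Neighbouring loci did not all differ alike, and at OAS1 they differed in opposite directions. The locus over the OAS1 start (chr12:112904416-112909728) had 4463 and 3656 bp in untreated and 5286 and 5118 bp in treated CFPAC1, and went from 0 and 0 to 2931 and 3206 bp in MiaPaCa2 (difference -3.54, adjusted p = 0.0279). A locus 6752 bp from the nearer OAS1 end (chr12:112923252-112926467) had 496 and 200 bp that became 3216 and 2599 bp in CFPAC1, and 0 bp in every MiaPaCa2 library (2.69, adjusted p = 0.0486). At MX1, chr21:41423515-41425292 was gained in both lines (1778 and 1532 bp against 1478 and 1605 bp). Its difference of 0.22 was not called (adjusted p = 0.769). The locus next to it, chr21:41425396-41429284, was held in CFPAC1 and gained in MiaPaCa2 (difference -2.63, adjusted p = 0.0279). The locus over SAMD9 (chr7:93114486-93119870) was more positive in MiaPaCa2 (-2.60), and one 15838 bp from SAMD9L (chr7:93164223-93166634) was more positive in CFPAC1 (3.26, adjusted p = 0.0486).

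**Figure D5:**
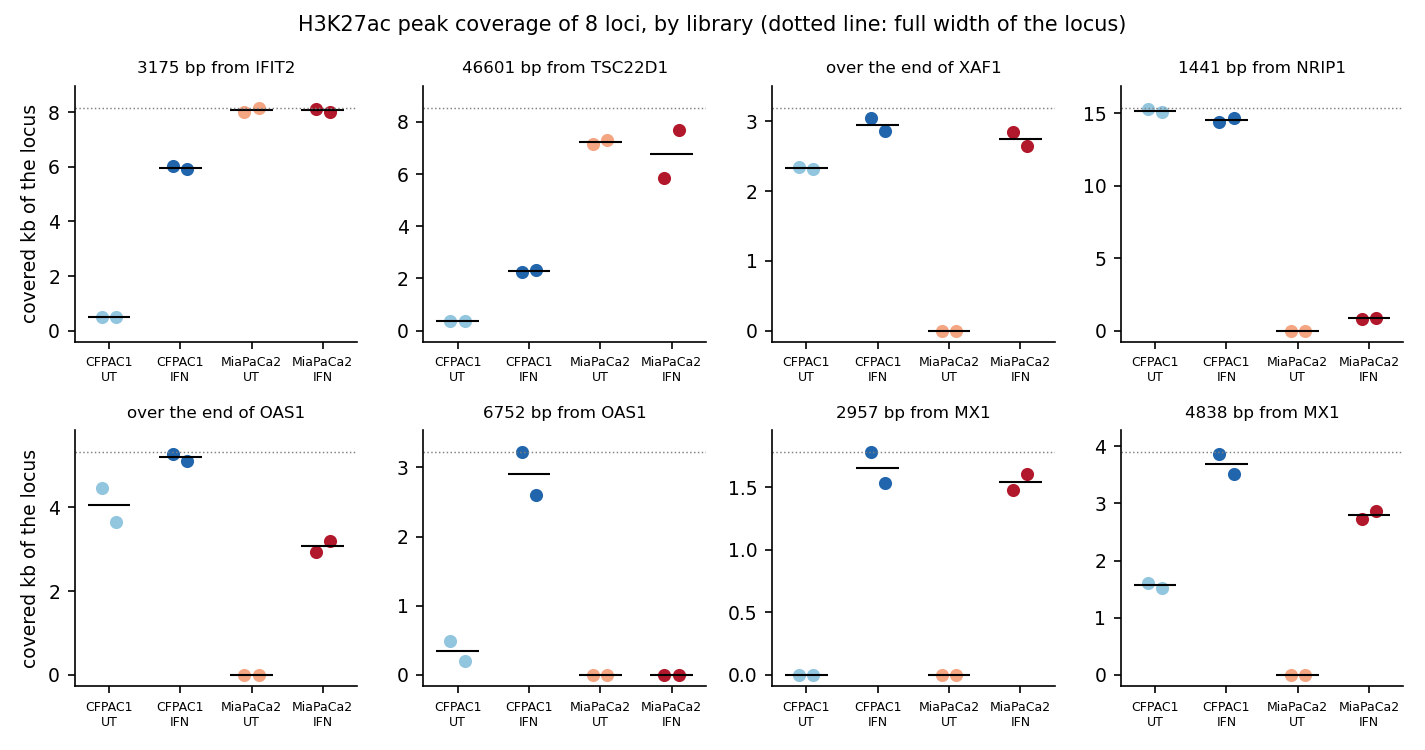
Covered kb (vertical axis, scaled to each locus; the dotted line is its full width) in each library of the 4 groups at 8 loci, named by their distance from the nearest gene end. The locus 3175 bp from IFIT2 is near full width in MiaPaCa2 before treatment, and the 2 OAS1 loci differ in opposite directions.

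The chemokine neighbourhood on chromosome 4 gave 6 called loci, at CXCL9, CXCL10 (3) and CXCL11 (2), all more positive in CFPAC1 and all uncovered in MiaPaCa2. Of all tested loci 2.28% were called, and the tested loci of this neighbourhood were not counted. Except for the CXCL11 locus 22442 bp from the gene, they passed the filter only through the treated CFPAC1 libraries. The same holds for the loci below with peaks in treated CFPAC1 alone. Such calls lend no further support to a different response. The widest, chr4:76034325-76037758 over CXCL11, had 3434 and 2215 bp in treated CFPAC1 (4.02, adjusted p = 0.0279). At IRF8, 3 loci 6022 to 37346 bp from the gene were gained in CFPAC1 and uncovered in MiaPaCa2, beside the 2 gained in both. Outside the interferon lists, the locus at NRIP1 (chr21:15049155-15064495), a nuclear receptor corepressor, had 15307 and 15062 bp in untreated and 14366 and 14701 bp in treated CFPAC1, and went from 0 and 0 to 794 and 904 bp in MiaPaCa2 (-2.32, adjusted p = 0.0279). The locus 152 bp from ADPRH (chr3:119585784-119589793) was gained in CFPAC1, with 4010 and 2718 bp, and uncovered in MiaPaCa2, and one 38823 bp from RASGRF2 (chr5:80918368-80921540) had 3062 and 2807 bp in treated CFPAC1 alone. Among loci covered in every group, 1 located 20698 bp from NT5C3A (chr7:33038109-33042078) had 3093 and 3164 bp that became 3809 and 3782 bp in CFPAC1, and 309 and 200 bp that became 3256 and 2770 bp in MiaPaCa2, and was called only in the fit of all loci.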

How the data were processed

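H3K27ac ChIP-seq peak lists of 12 libraries in 6 groups were used, 8 of them in the comparison. Per the submitters' processing notes, the tools named are Trimmomatic 0.38, Bowtie2 2.2.6, SAMtools and MACS2 2.1.0.20150731, and the build is GRCh38. The deposited narrowPeak lists hold each peak's fold enrichment (a ratio) and its −log10 p and q as the authors' caller gave them. No counts are in these lists, so no depth or interval on reads can be given. Covered bp were summed within 5 kb of the gene end with the larger mean over 12 libraries, or over loci merged from 8 lists. They were put on a log2 scale with 500 bp (genes) or 200 bp (loci) added, centred per library, and tested with limma 3.58.1 in R 4.3.3 (group means, trended prior, Benjamini-Hochberg adjustment over all features covered in at least 2 libraries). Python 3.11.15 with pandas 2.3.3 and numpy 2.4.6 did the rest. The gene fit was tested on simulated data with differences placed only in genes covered in every group. That test did not cover genes without peaks in a group, or the locus fits.

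Genes were named if called, if among the 5 largest differences in each direction among genes covered in every group with similar untreated coverage, if on a fixed list of 36 response genes, or if at either end of a list. Loci were named by adjusted p, by fold rank in the treated lists, or if gained in both lines near interferon genes. Members, lists and tests were chosen with earlier results of these data known. Alternatives changed the pseudocount, window, scaling, peak threshold, filter and libraries. Some results are not reported here.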

Additional observations from a re-analysis of the deposited data

Results flagged for a closer look

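The change with IFN-β differed between the lines by limma's test of the difference itself at 9 genes and, among loci covered in every group, at 2 loci. The differences (log2, CFPAC1 minus MiaPaCa2) were 3.38 at LINGO1, 3.02 at CXCL11, 2.86 at MORC1, 2.32 at PNOC and 2.32 at APOBEC3A, where only CFPAC1 gained coverage. They were -2.41 at XAF1 and -1.59 at ACSL5, where MiaPaCa2 rose past the threshold and CFPAC1 did not, and -1.88 at CCDC33 and -1.67 at TSPAN2, where only CFPAC1 fell past the threshold. The locus near IFIT2 had 3.32 and the locus near TSC22D1 had 2.41.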

How the results depend on the processing

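Covered length does not measure peak height, and a full window or locus cannot widen. The called genes kept their direction in every alternative that tested them. Among the 8 libraries, MORC1, LINGO1, APOBEC3A and PNOC had peaks only in treated CFPAC1. Where the window was unchanged their direction could therefore hardly turn, and keeping it lends no support. PNOC was tested in 19 alternatives and the other named genes of this kind in 18. XAF1 was called in 20 of 21, MORC1 in 16 of 18, CXCL11 in 11 of 21 and TSPAN2 in 6 of 21. The cause of each shift below was not tested.

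Of 9 called genes, the count became 27 with 100 bp added, 21 with 2000 bp, 17 without centring (8 more positive in CFPAC1, 9 in MiaPaCa2), 35 with quantile normalization (23 and 12), 17 with peaks of −log10 q of at least 5, 57 with no filter, 16 with only the 8 libraries, and 0 to 24 without 1 library. Among genes covered in every group the count of 0 became 2 with 100 bp added, 1 each with the replicate block, a 2 kb window, −log10 q of at least 5 or coverage in all 8 libraries, and 0 to 8 without 1 library. The 2254 loci became 12319 with 50 bp added, 463 with 1000 bp, 11927 without centring (4824 and 7103), 7348 with quantile normalization, 4704 at −log10 q of at least 5, 4596 with equal numbers of peaks, 860 with peaks within 500 bp merged, 129 with coverage in at least 4 libraries, and 0 without any 1 library. The 2 loci covered in every group became 1 with 1000 bp added, without centring or at −log10 q of at least 5, 0 with equal numbers of peaks, and 0 to 3 without 1 library. Loci gained in CFPAC1 only (2985) became 1968 at −log10 q of at least 5 and 2802 to 10008 without 1 library; those in MiaPaCa2 only (1827) became 1070 with peaks merged and 1706 to 9708; those in both (216) became 237 to 399. The median difference of interferon-stimulated genes, -0.11, lay between -0.25 and 0.064 without 1 library.

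The replicate block gave 8 called genes, 5 and 3, and took the 2254 called loci to 0. Deviations of same-numbered libraries correlated at 0.205 (untreated and treated CFPAC1), -0.011 (untreated and treated MiaPaCa2) and 0.172 (the untreated lines). The labels do not say what the numbers share, and the numbers were not taken to pair the libraries.

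Differences that changed sign were all uncalled: MX1 with a 2 kb (-0.044) or 10 kb window (-0.75), −log10 q of at least 5 (-0.0011) and equal peaks (-0.035), and -0.030 to 0.21 without 1 library; IFIT3 with 10 kb (-0.038); OASL with 2000 bp added (0.077) or 2 kb (0.093). RSAD2 did so with 100 bp added (-1.06) or 2 kb (-0.34), with -0.019 to 0.64 without 1 library, CMPK2 with 100 bp added (-0.96) or 2 kb (-0.34), and RIGI at −log10 q of at least 5 (0.16) and equal peaks (0.18), with -0.29 to 0.011 without 1 library. HLA-C did so with quantile normalization (0.071), and HLA-E (0.039) and HERC6 (-0.0014) with 2 kb.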

Other observations

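Some called loci near interferon genes lost coverage. The locus over LGALS3BP (chr17:78970877-78975074), which encodes a secreted glycoprotein, had 969 and 804 bp in untreated CFPAC1, 0 bp in treated CFPAC1, 4171 and 4178 bp in untreated MiaPaCa2 and 3468 and 4181 bp in treated MiaPaCa2 (difference -2.18, limma adjusted p = 0.0279). Loci 11009 bp from TRIM25 and 13803 bp from ZC3HAV1 had peaks in untreated CFPAC1 and in no other group, with differences of -2.55 and -2.70. A locus 658 bp from APOBEC3H was lost in MiaPaCa2 and uncovered in CFPAC1 (2.23, limma adjusted p = 0.0376).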
